A study of Homo sapiens with 15 samples.

Results

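Serine synthesis and one-carbon genes are described here in A549 cells, a human lung adenocarcinoma epithelial cell line, by RNA-seq. Cells were kept for 72 hours under hyperoxia (95% oxygen) or under normoxia (21% oxygen). The group holds 10 genes named by symbol, PHGDH, PSAT1, PSPH, SHMT1, SHMT2, MTHFD2, MTHFD1L, SLC1A4, SLC1A5 and CBS, out of 43388 genes counted, and all 10 passed the filter on low counts. Before the oxygen exposure, cells were given all-trans retinoic acid (ATRA, 1e-05 mM) or its ethanol vehicle for 24 hours, or the labels name neither. The libraries number 2 with vehicle, 2 with neither and 3 with ATRA at each oxygen exposure, 14 in all. Another library, 1 of 15 in all, carries labels that contradict each other (hyperoxia in 1 field and adipogenic differentiation in another) and entered no comparison. All libraries come from the same wild-type cell line, and no source used here says whether libraries of a group came from separate cultures, so p-values measure the spread between libraries, which may be technical.

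Cells make serine from an intermediate of glycolysis in a short pathway. PHGDH oxidizes that intermediate, PSAT1 transfers an amino group to the product, and PSPH removes the phosphate. Serine hydroxymethyltransferases then split serine into glycine and a carbon unit carried by folate. SHMT1 does this in the cytosol and SHMT2 in mitochondria, where MTHFD2 and MTHFD1L oxidize the unit and release it as formate for purine and thymidylate synthesis. SLC1A4 and SLC1A5 carry serine and other neutral amino acids across the plasma membrane, and CBS condenses serine with homocysteine on the way to cysteine and glutathione. Many of these genes are known targets of the transcription factor ATF4, which is translated when amino acids are short, and several are induced in lung tumor cells with active NFE2L2 (NRF2).

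Because many of these genes are described as ATF4 targets, their promoters are shown first, with the core of the C/EBP-ATF response element to which ATF4 binds, TGATGNAA, searched on both strands. RefSeq promoter windows (GRCh38.p14, 250 bases before to 50 bases after a transcript start) were found for 8 of the 10 genes, 16 windows in all, and none for PSPH or SHMT2. The core was found in 5 windows of 3 genes, MTHFD1L, SLC1A4 and SLC1A5, where the 3 windows of MTHFD1L overlap and hold the same match. It occurs in 3.62% of all 35116 promoter windows of this length, and 4.46% of 27305 genes have it in a window. A match of these letters is a description and not a binding site. The windows with a match belong to transcript starts inside the gene, and PHGDH and PSAT1, which hold no match, are shown as the first enzymes of the pathway. The sequences run 5′ to 3′ in the direction of the gene, in lower case with the match in capitals (TTGCATCA is TGATGCAA read on the other strand).
MTHFD1L, chr6:150866236-150866535, plus strand: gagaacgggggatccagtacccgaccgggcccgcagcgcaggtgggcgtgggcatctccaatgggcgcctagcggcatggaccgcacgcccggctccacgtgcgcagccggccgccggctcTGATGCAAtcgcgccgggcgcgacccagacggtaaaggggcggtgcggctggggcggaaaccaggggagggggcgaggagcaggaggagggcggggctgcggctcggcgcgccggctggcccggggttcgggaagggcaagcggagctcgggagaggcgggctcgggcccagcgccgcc
SLC1A4, chr2:64989149-64989448, plus strand: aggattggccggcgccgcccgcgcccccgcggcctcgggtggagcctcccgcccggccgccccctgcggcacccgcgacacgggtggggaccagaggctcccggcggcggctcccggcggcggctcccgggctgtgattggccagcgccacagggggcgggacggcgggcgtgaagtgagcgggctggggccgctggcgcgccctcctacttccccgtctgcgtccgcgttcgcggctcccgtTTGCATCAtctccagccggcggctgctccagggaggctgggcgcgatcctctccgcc
SLC1A5, chr19:46784765-46785064, minus strand: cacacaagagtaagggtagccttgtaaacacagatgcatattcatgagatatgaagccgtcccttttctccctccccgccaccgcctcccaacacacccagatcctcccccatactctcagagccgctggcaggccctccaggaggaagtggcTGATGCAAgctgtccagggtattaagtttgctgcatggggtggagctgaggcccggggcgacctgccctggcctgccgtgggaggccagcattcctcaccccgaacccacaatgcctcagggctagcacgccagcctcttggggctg
PHGDH, chr1:119711684-119711983, plus strand: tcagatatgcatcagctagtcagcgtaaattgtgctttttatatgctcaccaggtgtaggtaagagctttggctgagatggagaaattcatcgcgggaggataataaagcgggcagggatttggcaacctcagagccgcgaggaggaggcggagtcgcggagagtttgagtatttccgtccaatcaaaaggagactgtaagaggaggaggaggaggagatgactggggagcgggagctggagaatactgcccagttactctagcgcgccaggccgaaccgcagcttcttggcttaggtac
PSAT1, chr9:78296875-78297174, plus strand: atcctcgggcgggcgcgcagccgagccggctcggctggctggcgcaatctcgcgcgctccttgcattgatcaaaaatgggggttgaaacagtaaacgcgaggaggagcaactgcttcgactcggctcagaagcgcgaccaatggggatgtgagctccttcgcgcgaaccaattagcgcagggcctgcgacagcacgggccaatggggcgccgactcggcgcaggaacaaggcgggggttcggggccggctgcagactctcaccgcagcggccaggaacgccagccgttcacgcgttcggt
The match starts 129 bases before the transcript start in this window of MTHFD1L, 7 bases before it in SLC1A4 and 97 bases before it in SLC1A5. The core of the antioxidant response element bound by NFE2L2, TGACNNNGC, was found in 1 window each of MTHFD2, SLC1A5 and CBS and in 13.35% of all windows. The E-box CACGTG was found in 3 overlapping windows of MTHFD1L, as the same match, in 1 window of SLC1A5, and in 7.26% of all windows.

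Total counts on genes ran from 2642377 to 5605072 per library, between 12657 and 20108 genes had a count, and a count of 3 corresponded to between 0.535 and 1.14 CPM (counts scaled to 1e+06 per library). The 10 genes together held between 0.0563% and 0.125% of the gene counts. Replicate 1 of hyperoxia with neither stood apart, with 12657 genes detected at 4910396 counts and a median correlation with the other libraries of 0.799, against 0.888 to 0.925 for the rest. The epithelial keratins KRT8 and KRT18 were abundant, and the 6 alveolar type II markers (the surfactant protein genes and NKX2-1) summed to at most 2.61 CPM. Of the markers of other cell types, the 7 fibroblast genes summed to 0 to 8.04 CPM in hyperoxia and 8.74 to 22.4 CPM in normoxia, without overlap, the 5 endothelial genes to 0 to 6.26 CPM and the 6 adipocyte genes to 0 to 6.19 CPM. The 6 leukocyte genes summed to 60.7 to 103 CPM in hyperoxia and 20.4 to 48.1 CPM in normoxia, most of it CD68 (17.4 to 103 CPM), a lysosomal gene, with CD14 at 0 to 15.3 CPM, while PTPRC reached 0.177 CPM and CD3E had no count. CD68 was called higher in hyperoxia with vehicle (log2 fold change 1.63, SE 0.23), and its part in the results was not tested. The exposures were visible in CDKN1A, a cell cycle inhibitor, at 963 to 1140 CPM in hyperoxia and 64.9 to 108 CPM in normoxia. CYP26B1, which degrades retinoic acid, was at 373 to 858 CPM with ATRA and at 35.3 to 98.5 CPM without it, and the retinoid genes STRA6 (log2 fold change 1.86 in hyperoxia and 1.47 in normoxia) and DHRS3 (1.86 and 1.63) were called higher with ATRA as well.

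The first question was how hyperoxia moved these genes. In cells given vehicle, 9 of the 10 genes were called lower in hyperoxia than in normoxia (adjusted p under 0.05 in the quasi-likelihood test of edgeR, with p-values adjusted by Benjamini-Hochberg across the 14957 genes tested). The fitted change was negative for all 10. Of all genes tested, 17.5% were called, and 8.81% were called lower. The median log2 fold change was -1.27 over the 10 genes and 0.01 over all genes tested. With CBS set aside, since it had 0 counts in hyperoxia with vehicle, the fitted falls were largest for PHGDH, SLC1A4, PSAT1 and PSPH in that order, and MTHFD1L alone did not pass the test. Apart from CBS and MTHFD1L, each gene stayed called lower under every alternative tried for this comparison.

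**Figure D1:**
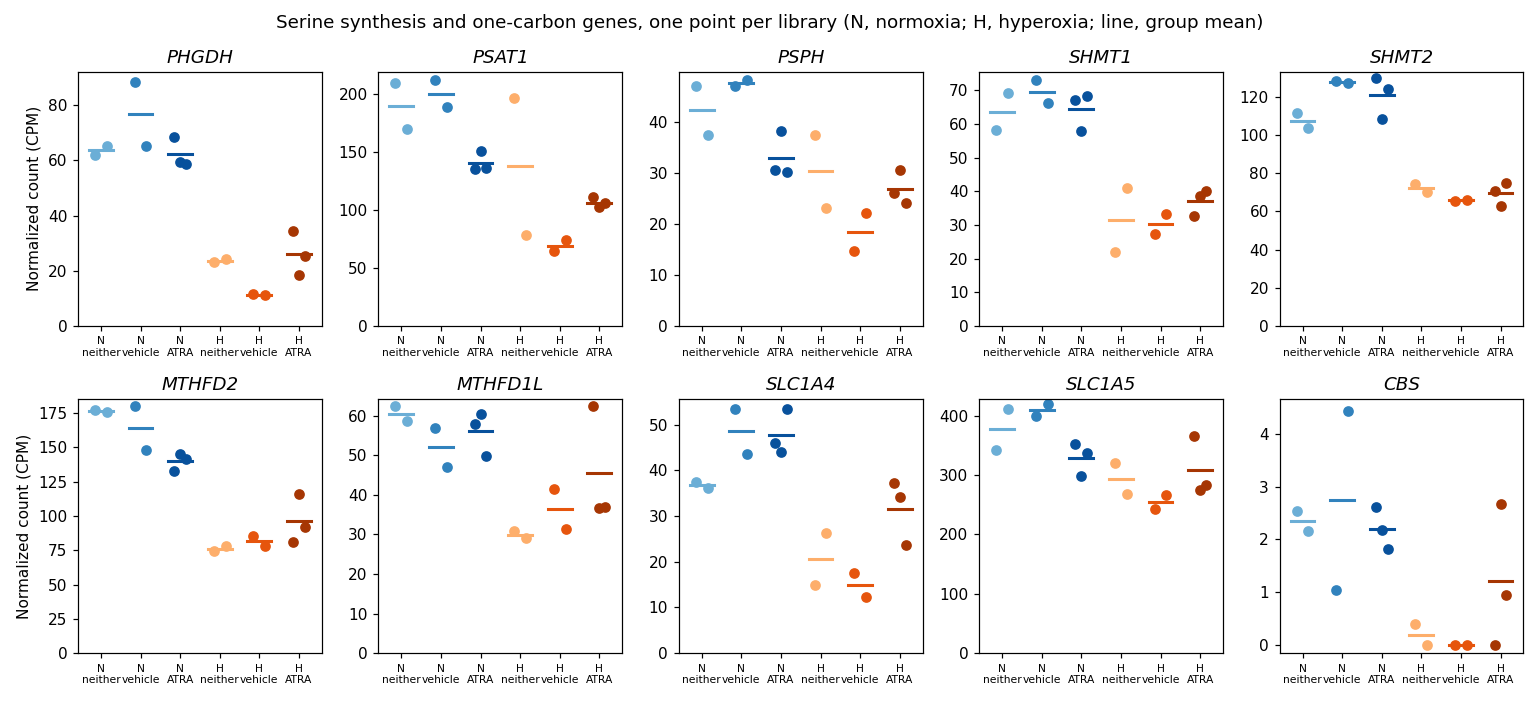
Normalized count in CPM (y axis, from 0, its own scale in each panel) of the 10 genes in the 14 grouped libraries, with 1 point per library and a line at the group mean. N is normoxia and H is hyperoxia. PHGDH, SHMT1, SHMT2 and MTHFD2 lie lower in all 7 hyperoxia libraries than in all 7 normoxia libraries, and PHGDH is lowest in hyperoxia with vehicle.

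PHGDH, the first enzyme of serine synthesis, lies on chromosome 1 of GRCh38.p14 from 119711934 to 119744215. Its normalized count with vehicle was 88.3 and 65.3 CPM in the normoxia libraries and 11.4 and 11.3 CPM in the hyperoxia libraries. The log2 fold change was -2.75 (SE 0.27, adjusted p = 2.63e-07). With ATRA, PHGDH was at 68.6, 59.3 and 58.6 CPM in normoxia and at 34.4, 18.4 and 25.3 CPM in hyperoxia. With neither, it was at 62.0 and 65.2 CPM in normoxia and at 23.0 and 24.1 CPM in hyperoxia. No hyperoxia library reached the lowest normoxia library, and the vehicle libraries were the lowest of the hyperoxia libraries.

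PSAT1, the aminotransferase (chromosome 9, 78297125 to 78330093), was at 212 and 189 CPM in normoxia with vehicle and at 64.4 and 73.6 CPM in hyperoxia with vehicle. Its log2 fold change was -1.53 (SE 0.15, adjusted p = 2.10e-07). With ATRA, its level was 135, 151 and 136 CPM in normoxia and 111, 103 and 106 CPM in hyperoxia, which do not overlap, and the log2 fold change was smaller, -0.40 (SE 0.12, adjusted p = 0.0182). With neither, PSAT1 was at 209 and 170 CPM in normoxia and at 197 and 78.5 CPM in hyperoxia. The value of 197 CPM belongs to the library that stood apart, and it overlaps the normoxia range.

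PSPH, the phosphatase (chromosome 7, 56011064 to 56051444, minus strand), was at 46.9 and 48.1 CPM in normoxia and 14.6 and 22.1 CPM in hyperoxia with vehicle, a log2 fold change of -1.36 (SE 0.26, adjusted p = 0.000673). With ATRA, PSPH ran from 30.2 to 38.1 CPM in normoxia and from 24.1 to 30.6 CPM in hyperoxia, which overlap, and its log2 fold change of -0.30 was not called (SE 0.21, adjusted p = 0.341). With neither, the value in hyperoxia was again split, 37.4 CPM in the library that stood apart and 23.1 CPM in the other.

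Next came the folate enzymes. SHMT2, the mitochondrial serine hydroxymethyltransferase (chromosome 12, 57229711 to 57234935), was at 129 and 127 CPM in normoxia and at 65.7 and 66.0 CPM in hyperoxia with vehicle. Its log2 fold change was -0.96 (SE 0.16, adjusted p = 0.000156). SHMT2 also varied little between treatments, since all 7 hyperoxia libraries were between 62.8 and 75.1 CPM and all 7 normoxia libraries between 104 and 130 CPM. SHMT1, the cytosolic enzyme (chromosome 17, 18327873 to 18363550, minus strand), was at 73.0 and 66.2 CPM in normoxia and at 27.3 and 33.4 CPM in hyperoxia with vehicle, a log2 fold change of -1.19 (SE 0.20, adjusted p = 0.000226). SHMT1 shares 197 exonic bases with SMCR8 on the opposite strand. SMCR8 had 306% as many counts and was called higher in hyperoxia with vehicle (log2 fold change 0.83, SE 0.16, adjusted p = 0.000739). Since the strand setting of the counting is not given in the sources used here, reads in the shared bases cannot be assigned.

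MTHFD2, which oxidizes the mitochondrial folate carbon unit (chromosome 2, 74198615 to 74217565), was at 180 and 148 CPM in normoxia and at 85.1 and 78.0 CPM in hyperoxia with vehicle. Its log2 fold change was -1.01 (SE 0.17, adjusted p = 0.000191). With neither, MTHFD2 was at 178 and 176 CPM in normoxia and at 74.7 and 77.9 CPM in hyperoxia, so the library that stood apart was close to its partner for this gene. MTHFD2 shares 1324 exonic bases with SLC4A5 on the opposite strand, which had 8.68% as many counts. SLC4A5 was called lower in hyperoxia with neither (log2 fold change -3.19, SE 0.88, adjusted p = 0.0230). It was not called with vehicle (-0.76) or with ATRA (0.36). MTHFD1L, which makes formate (chromosome 6, 150865702 to 151101887), was at 57.0 and 47.2 CPM in normoxia and at 41.6 and 31.4 CPM in hyperoxia with vehicle. Its log2 fold change of -0.51 was not called (SE 0.25, adjusted p = 0.185), although it was called with neither (-1.01, SE 0.27, adjusted p = 0.0188). In hyperoxia with ATRA, 1 library had 62.6 CPM of MTHFD1L and the others 36.7 and 37.1 CPM.

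Of the carriers, SLC1A4 (chromosome 2, 64988479 to 65023865) was at 53.5 and 43.6 CPM in normoxia and at 17.5 and 12.2 CPM in hyperoxia with vehicle, a log2 fold change of -1.72 (SE 0.27, adjusted p = 8.53e-05). SLC1A5, which also carries glutamine (chromosome 19, 46774883 to 46788594, minus strand), was at 400 and 419 CPM in normoxia and at 242 and 267 CPM in hyperoxia with vehicle. Its log2 fold change was -0.69 (SE 0.15, adjusted p = 0.00186). SLC1A5 shares 780 exonic bases, 23.4% of its own, with a long noncoding RNA gene on the opposite strand. The counts do not list that gene under its annotated name. With ATRA, SLC1A5 ran from 299 to 352 CPM in normoxia and from 274 to 366 CPM in hyperoxia, the ranges overlapped, and the log2 fold change was -0.09 (SE 0.12, adjusted p = 0.626).

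CBS (chromosome 21, 43053191 to 43076873, minus strand) was close to the limit of detection. It had 0 counts in both hyperoxia libraries with vehicle and 3 and 25 counts in the normoxia libraries with vehicle, at least 4.13-fold lower in hyperoxia when set against a floor of 3 counts per library. That bound was 6.69-fold without the normoxia library with 3 counts, and without the one with 25 counts no fold can be given, since the other was at the floor. CBS was called lower (adjusted p = 0.0405). That call was lost when any of the 4 vehicle libraries was left out (adjusted p from 0.0715 to 0.320). With ATRA, CBS had between 7 and 10 counts in normoxia and 0, 7 and 4 counts in hyperoxia. CBSL is a near-identical copy of CBS, and reads may be split between them. CBSL had 16 counts in the hyperoxia library with ATRA where CBS had none, and at most 1 count in every other grouped library. With CBS at its bound, the median of the 10 genes in hyperoxia against normoxia with vehicle was still -1.27.

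In cells given ATRA, 6 of the 10 genes were called lower in hyperoxia, where 22.7% of all genes tested were called and 11.3% were called lower. These were PHGDH (-1.22, SE 0.21), PSAT1, SHMT1 (-0.81, SE 0.17), SHMT2 (-0.79, SE 0.13), MTHFD2 (-0.55, SE 0.14) and SLC1A4 (-0.60, SE 0.21), all as log2 fold changes. The median over the 10 genes was -0.57 against 0.01 over all genes. The SLC1A4 call (adjusted p = 0.0431) was lost without any one of the 3 normoxia libraries with ATRA or without replicate 3 of hyperoxia with ATRA (adjusted p up to 0.167). It was also lost in a fit of only the groups compared (adjusted p = 0.0563) and of all 14 libraries (0.151). The PSAT1 call (adjusted p = 0.0182) was lost without replicate 2 of normoxia with ATRA (adjusted p = 0.0558) and in the fit of all 14 libraries (0.295).

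In cells given neither, 5 of the 10 genes were called lower in hyperoxia, where 15.2% of 15339 genes tested were called and 7.58% were called lower. The 5 were PHGDH (-1.44, SE 0.27), SHMT1 (-1.03, SE 0.26), SHMT2 (-0.58, SE 0.15), MTHFD2 (-1.21, SE 0.17) and MTHFD1L. PSAT1 was at -0.45 (SE 0.27, adjusted p = 0.280), SLC1A4 at -0.85 (SE 0.32, adjusted p = 0.0840), PSPH at -0.47 and SLC1A5 at -0.36 on the log2 scale. The median was -0.93 over the 10 genes and -0.10 over all genes. Without the library that stood apart, 4 genes were called. PSAT1 was then called at -1.28 (SE 0.20, adjusted p = 0.000117), while SHMT1 at -0.64 (adjusted p = 0.126) and SHMT2 at -0.63 (adjusted p = 0.0512) were not. Without either of the normoxia libraries given neither, 3 genes were called.

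**Figure D2:**
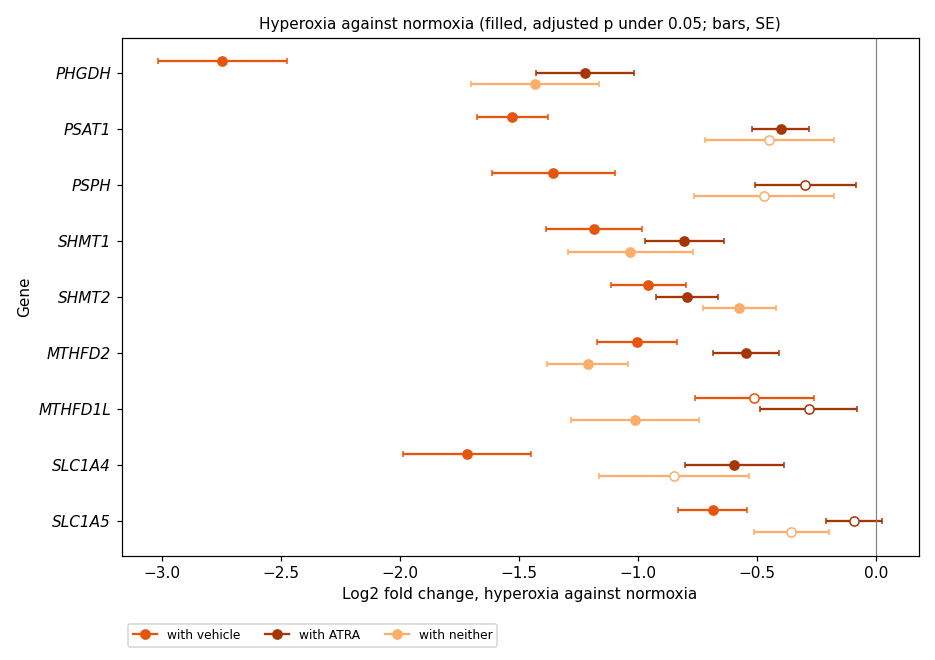
Log2 fold change of hyperoxia against normoxia (x axis) for 9 genes (y axis) in cells given vehicle, ATRA or neither. Filled points passed an adjusted p of 0.05, open points did not, and bars are SE. CBS is not drawn because hyperoxia libraries with vehicle had 0 counts. All values lie below 0, from -2.75 for PHGDH with vehicle to -0.09 for SLC1A5 with ATRA.

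Over all treatments, 4 of the 10 genes, PHGDH, SHMT1, SHMT2 and MTHFD2, were lower in each of the 7 hyperoxia libraries than in each of the 7 normoxia libraries. The same was true of 7.31% of all genes tested. PHGDH ran from 11.3 to 34.4 CPM in hyperoxia and from 58.6 to 88.3 CPM in normoxia, SHMT1 from 22.0 to 41.0 and from 58.0 to 73.0 CPM, and MTHFD2 from 74.7 to 116 and from 133 to 180 CPM. The other members overlapped, SLC1A4 only by 37.1 CPM in 1 hyperoxia library against 36.2 CPM in 1 normoxia library.

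Whether the oxygen effect differed between vehicle and neither was tested as a difference of differences, chosen after seeing the data. None of the 10 genes was called (0.00652% of all genes were), and 2 had an unadjusted p under 0.05 (744 of all 15339 genes did). These were PHGDH, with a difference of -1.32 (SE 0.38, adjusted p = 0.869), and PSAT1, with -1.08 (SE 0.39, adjusted p = 0.869). A smaller oxygen effect with neither than with vehicle was therefore not shown.

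Per kilobase of transcript (the Ensembl canonical transcript of each gene), SLC1A5 had the highest level in normoxia with vehicle, 142 ± 4.67 CPM per kb (SD, n = 2). PSAT1 (90.7 ± 7.42) and SHMT2 (59.3 ± 0.412) followed, then PHGDH (41.1 ± 8.72) and MTHFD2 (37.3 ± 5.13), whose difference was within their spread. SHMT1 (27.5 ± 1.91), PSPH (24.1 ± 0.409), MTHFD1L (15.1 ± 2.01), SLC1A4 (10.6 ± 1.53) and CBS (1.10 ± 0.961) were lower. In hyperoxia with vehicle SLC1A5 was still highest, at 88.2 ± 6.03 CPM per kb. PSAT1 (31.3 ± 2.95) and SHMT2 (30.5 ± 0.0950) no longer differed beyond their spread, and PHGDH came at place 8 of 10, at 6.08 ± 0.0376 CPM per kb, where it had been at place 4.

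The second question was what ATRA did in hyperoxia. Against vehicle, 3 of the 10 genes were called higher with ATRA, PHGDH, PSAT1 and SLC1A4, while 2.21% of all genes were called and 1.52% were called higher. The fitted change was positive for all 10. Their median was 0.44 on the log2 scale, that of all genes tested 0.00, and with CBS at its bound the median was also 0.44. PHGDH rose from 11.4 and 11.3 CPM to 34.4, 18.4 and 25.3 CPM, a log2 fold change of 1.23 (SE 0.26, adjusted p = 0.0111). SLC1A4 rose from 17.5 and 12.2 CPM to 37.1, 34.1 and 23.6 CPM, a log2 fold change of 1.11 (SE 0.25, adjusted p = 0.0193). PSAT1 rose from 64.4 and 73.6 CPM to 111, 103 and 106 CPM, a log2 fold change of 0.62 (SE 0.14, adjusted p = 0.0159). For each of these 3 genes, no ATRA library overlapped the vehicle libraries. PSPH had a log2 fold change of 0.53 (SE 0.24, adjusted p = 0.341). SHMT2 was at 0.08 (SE 0.15, adjusted p = 0.871) and MTHFD2 at 0.23 (SE 0.16, adjusted p = 0.563).

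These 3 calls rested on the vehicle libraries. None held without replicate 1 or without replicate 2 of hyperoxia with vehicle, where 1 library is left in that group. The log2 fold changes themselves stayed positive on leaving out 1 hyperoxia library at a time. They were 0.96 to 1.39 for PHGDH, 0.52 to 0.72 for PSAT1 and 0.85 to 1.36 for SLC1A4. Without replicate 1 of hyperoxia with ATRA, only PSAT1 was called, and without replicate 2 the SLC1A4 call was lost (adjusted p = 0.0530). Against the hyperoxia libraries given neither, none of the 10 genes was called with ATRA, where 0.43% of all genes were called and 2 of the 10 had an unadjusted p under 0.05. There the log2 fold change was 0.17 (SE 0.25, adjusted p = 0.731) for PHGDH, -0.38 (SE 0.25, adjusted p = 0.421) for PSAT1 and 0.63 (SE 0.30, adjusted p = 0.289) for SLC1A4. PHGDH with neither, at 23.0 and 24.1 CPM, lay within the range of the ATRA libraries. Without the library that stood apart, PSAT1 was 0.43 higher with ATRA than with neither (SE 0.19, adjusted p = 0.766), and again none of the 10 genes was called. The ATRA-responsive genes CYP26B1 (3.13), DHRS3 (1.38) and STRA6 (0.98) were called higher against these same libraries, as log2 fold changes.

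Vehicle and neither were also compared directly. In hyperoxia, none of the 10 genes was called and 0.00652% of all genes were. An unadjusted p under 0.05 was found for 3 of the 10 genes and for 1366 of all 15339. PHGDH was lower with vehicle by a log2 fold change of -1.05 (SE 0.29, adjusted p = 0.554), PSAT1 by -1.01 (SE 0.28, adjusted p = 0.554) and PSPH by -0.72 (SE 0.30, adjusted p = 0.554). Without the library that stood apart, PHGDH was still at -1.08 (SE 0.33, adjusted p = 1), but PSAT1 was at -0.18 (SE 0.20). In normoxia, none of the 10 genes was called and 0% of all genes were. None of the 10 had an unadjusted p under 0.05, while 133 of all 15339 genes did. PHGDH was then at 0.27 (SE 0.26) and PSAT1 at 0.08 (SE 0.27).

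**Figure D3:**
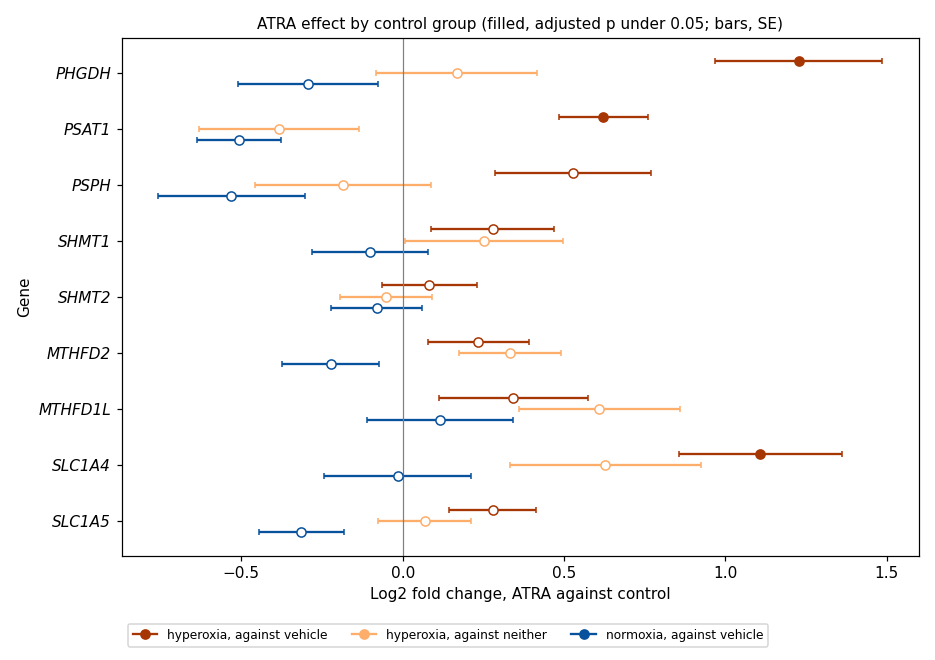
Log2 fold change of ATRA against a control group (x axis) for 9 genes (y axis), with CBS not drawn. Filled points passed an adjusted p of 0.05, open points did not, and bars are SE. PHGDH, PSAT1 and SLC1A4 are filled against vehicle in hyperoxia, and no gene is filled against neither in hyperoxia or against vehicle in normoxia.

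In normoxia, none of the 10 genes was called with ATRA against vehicle, where 1.25% of all genes were called. The fitted change was negative for 9 of the 10 genes, with a median of -0.26 against 0.00 for all genes. An unadjusted p under 0.05 was found for 3 of the 10 and for 1315 of all 14957 genes. PSAT1 was at 135, 151 and 136 CPM with ATRA and at 212 and 189 CPM with vehicle, a log2 fold change of -0.51 (SE 0.13, adjusted p = 0.0598). PSPH was at -0.53 (SE 0.23, adjusted p = 0.470), SLC1A5 at -0.31 (SE 0.13, adjusted p = 0.454) and PHGDH at -0.29 (SE 0.22, adjusted p = 0.816). Against neither, none of the 10 was called either, where 0.437% of all genes were called and MTHFD2 alone had an unadjusted p under 0.05 (-0.34, SE 0.15, adjusted p = 0.918). PSAT1 was at -0.43 (SE 0.24) in that comparison.

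The ATRA effect in hyperoxia was compared with that in normoxia by an interaction contrast. PSAT1 was called, with a log2 difference of 1.13 (SE 0.19, adjusted p = 0.0111). Only 0.14% of all genes, 21 of 14957, were called, and 0.1% were called in the same direction. The difference was positive for all 10 genes, with a median of 0.83 against 0.00 for all genes tested. An unadjusted p under 0.05 was found for 7 of the 10 and for 1078 of all 14957 genes. PHGDH was at 1.52 (SE 0.34, adjusted p = 0.0968), SLC1A4 at 1.12 (SE 0.34, adjusted p = 0.346) and PSPH at 1.06 (SE 0.33, adjusted p = 0.361). SHMT2 was at 0.16 (SE 0.20). Both ATRA effects used vehicle libraries, 2 at each oxygen exposure. With the libraries given neither as controls, the PSAT1 difference was 0.05 (adjusted p = 0.975), and it was also not called without replicate 1 of hyperoxia with vehicle (1.03) or without either of the normoxia libraries with vehicle (adjusted p up to 0.219).

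Other genes of the same metabolism were read from lists. For each list, the share of all genes called in hyperoxia against normoxia was 17.5% with vehicle, 22.7% with ATRA and 15.2% with neither. The share called lower was 8.81%, 11.3% and 7.58%. Of 14 further folate cycle enzymes and carriers tested in hyperoxia against normoxia with vehicle, 4 were called lower and none higher, with a median log2 fold change of -0.10. Among the 4, MTHFD1, the cytosolic enzyme that takes up formate, was at -0.62 (SE 0.14, adjusted p = 0.00293) and GGH, which trims folate polyglutamates, at -1.19 (SE 0.31, adjusted p = 0.00954). ALDH1L2, the mitochondrial enzyme that burns formyl folate, was also called lower (-1.50, SE 0.48, adjusted p = 0.0348). MTHFD1 and GGH were called lower with ATRA and with neither too. TYMS, thymidylate synthase, was not called in any of the 3 (-0.15 with vehicle, 0.23 with ATRA and 0.39 with neither). FPGS, which adds glutamates to folate, was called higher with neither (1.52, SE 0.31, adjusted p = 0.00390), at 47.9 and 96.7 CPM in hyperoxia and 22.4 and 28.3 CPM in normoxia. Without the library that stood apart, FPGS was at 0.92 (SE 0.30, adjusted p = 0.0488). It was not called with vehicle (0.29) or ATRA (0.02).

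Of 5 glycine cleavage genes, only GLDC, the glycine decarboxylase, was called. It was lower with vehicle (-1.36, SE 0.32), with ATRA (-1.21, SE 0.26) and with neither (-1.42, SE 0.37). Of 8 methionine cycle and transsulfuration genes tested with vehicle, 3 were called lower, MPST (-1.68), AHCYL1 (-0.85) and MAT2A, the methionine adenosyltransferase (-0.49). Of 12 purine synthesis genes tested, 4 were called lower with vehicle, 7 with ATRA and 2 with neither (5 without the library that stood apart), and none was called higher. PRPS1, which makes phosphoribosyl pyrophosphate, was at -0.86 (SE 0.21) and PFAS at -0.72 (SE 0.18) with vehicle, and PAICS was at -0.53 (SE 0.11) and PRPS2 at -0.76 (SE 0.18) with ATRA.

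Among 9 serine and glycine carriers tested with vehicle, SLC7A5 (-0.52, SE 0.12), which exchanges large neutral amino acids, and SLC6A9 (-1.25, SE 0.30), a glycine carrier, were called lower. SFXN3, a mitochondrial serine carrier, was called higher (0.63, SE 0.20). SLC25A38, a mitochondrial glycine carrier, was called higher with ATRA (0.62, SE 0.17) and with neither (1.23, SE 0.21). SFXN2, of the same family as SFXN3, was called lower with ATRA (-1.62, SE 0.56). Of 9 enzymes that use serine, SPTLC2, a subunit of serine palmitoyltransferase, was called lower with vehicle (-0.63), ATRA (-0.54) and neither (-0.91). The call with neither was lost without the library that stood apart (-0.59, adjusted p = 0.201). With vehicle, SPTLC2 alone of the 9 was called, where 17.5% of all genes were called. With ATRA, SARS (0.83), the seryl-tRNA synthetase, and PTDSS2 (0.75), a phosphatidylserine synthase, were called higher, and SDS was called lower with 0 counts in hyperoxia and a mean of 2.38 CPM in normoxia. PTDSS2 was also called higher with neither (1.10).

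ATF4 itself was called higher in hyperoxia, while the genes of the serine pathway that were called were lower. Its normalized count was 506 and 513 CPM in hyperoxia and 269 and 270 CPM in normoxia with vehicle, a log2 fold change of 0.92 (SE 0.12, adjusted p = 1.43e-05). With ATRA, ATF4 was 0.78 higher in hyperoxia (SE 0.10, adjusted p = 7.92e-06) and with neither 0.87 higher (SE 0.12, adjusted p = 0.000117). Of the 20 genes in the list of ATF4 and other ATF4 targets, 6 were called higher and 6 lower with vehicle. ATF5 (1.94), ATF3 (3.52) and SESN2 (1.64), a stress gene that restrains mTORC1, were among those that rose. DDIT4 (-2.01), ASNS, asparagine synthetase (-1.59), PYCR1, a proline synthesis enzyme (-1.32), and PCK2 (-1.83) fell. With ATRA, 9 were called higher and 5 lower, and with neither 5 higher and 6 lower (4 and 4 without the library that stood apart).

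**Figure D4:**
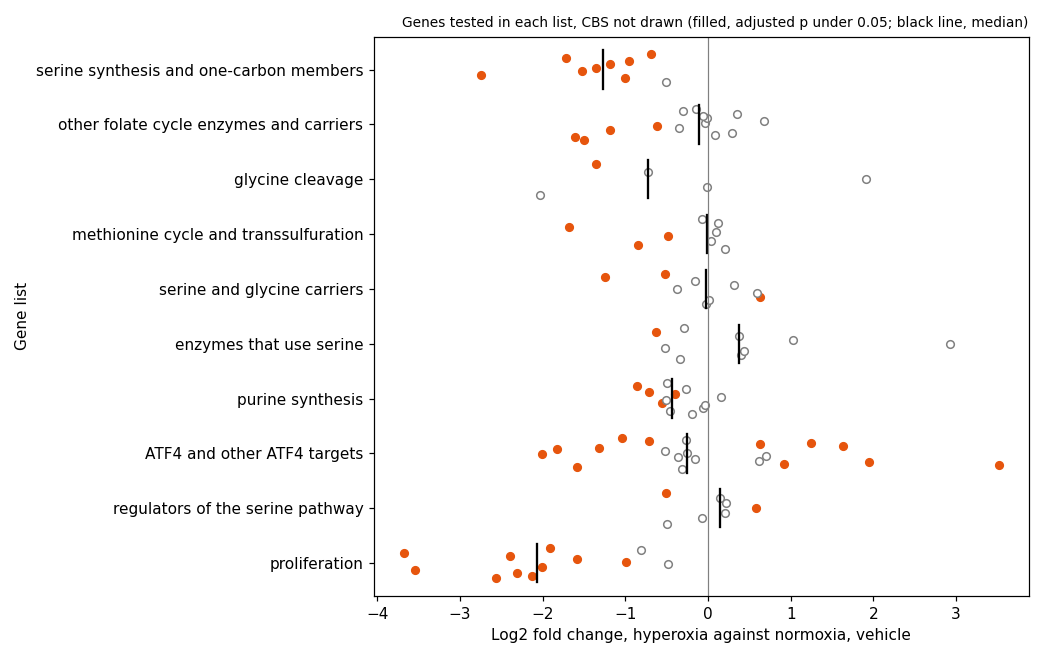
Log2 fold change of hyperoxia against normoxia in cells given vehicle (x axis) for the genes tested in each list (y axis). Filled orange points passed an adjusted p of 0.05, open points did not, and the black line is the list's median. CBS is counted in the median but not drawn. The serine synthesis and one-carbon genes lie below 0 (median -1.27), the ATF4 list lies on both sides of 0, and the proliferation genes lie below 0 (median -2.07).

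Of the 7 regulators listed for the serine pathway, NFE2L2 was not called in any of the 3 oxygen comparisons (0.22 with vehicle, 0.12 with ATRA and 0.32 with neither). With vehicle, 1 of the 7 was called higher, MYC (0.58, SE 0.17), and 1 was called lower. With ATRA, 1 was called higher and 1 lower, and with neither 1 was called higher and 0 lower. KEAP1, whose working protein holds NFE2L2 back, was called higher with ATRA (0.61, SE 0.15) and with neither (0.77, SE 0.23). The call with neither was lost without the library that stood apart (0.40, adjusted p = 0.335). Whether KEAP1 restrains NFE2L2 in these cells was not tested.

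Genes of proliferating cells moved with oxygen as the 10 genes did. Of 12 proliferation genes, 10 were called lower in hyperoxia with vehicle and 12 with ATRA and with neither, and their summed level was 454 to 826 CPM in hyperoxia and 2230 to 3273 CPM in normoxia. MKI67 was at -2.40 (SE 0.21, adjusted p = 6.22e-08) with vehicle. The 7 epithelial markers also summed to less in hyperoxia, 1689 to 4210 CPM against 5745 to 9567 CPM. So did the 7 fibroblast markers, with 1 of 3 tested called lower in each oxygen comparison (COL1A1 with vehicle and with neither, THY1 with ATRA). DCN had no count in any library. The part of any of these in the fall of the 10 genes was not tested, and in bulk libraries fewer cells of a kind and less RNA per cell cannot be told apart. With ATRA against vehicle in hyperoxia, MKI67 was at 0.15 (SE 0.19, adjusted p = 0.809).

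Outside the 10 genes, pathway genes of 3 lists were called higher with ATRA against vehicle in hyperoxia. They were 2 of 9 serine and glycine carriers, 1 of 8 methionine cycle and transsulfuration genes and 2 of 20 in the ATF4 list. The share of all genes called higher there was 1.52%. None of 14 folate genes, 5 glycine cleavage genes, 12 purine synthesis genes, 9 enzymes that use serine or 7 regulators was called. At an unadjusted p under 0.05 there were 3, 0, 3, 0 and 4 in these lists, against 2019 of all 14957 genes tested. The carriers SLC7A5 (0.61, SE 0.11, adjusted p = 0.00267) and SLC6A9 (1.20, SE 0.28, adjusted p = 0.0245), MPST (0.85, SE 0.21, adjusted p = 0.0369), and PCK2 (1.70, SE 0.30, adjusted p = 0.00190) and DDIT4 (1.05, SE 0.19, adjusted p = 0.00338) of the ATF4 list were called higher. All of these had been called lower in hyperoxia with vehicle. Both comparisons used the same hyperoxia libraries with vehicle, so low values there move both, and the 2 results are not independent. Against neither, the same 5 genes were higher with ATRA by 0.38, 0.97, 0.22, 2.06 and 0.73 on the log2 scale, and none was called (adjusted p from 0.144 to 0.614). ATF4 was at -0.24 with ATRA against vehicle (SE 0.11, adjusted p = 0.326). TRIB3, a pseudokinase of the ATF4 list, was lower with ATRA in normoxia (-1.36, SE 0.18, adjusted p = 0.000157) and had a called difference between the ATRA effects (1.33, SE 0.26, adjusted p = 0.0364). The epithelial genes KRT8 (1.01), KRT18 (0.97), KRT19 (0.99) and CDH1 (1.28) were also called higher with ATRA against vehicle in hyperoxia, and their part in the change of the 10 genes was not tested. Against neither, KRT19 was called higher (1.59, SE 0.26, adjusted p = 0.0123) and CDH1 was at -0.42 (SE 0.32, adjusted p = 0.491).

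Across the 14 libraries, log2 CPM of every pair of the 10 genes was positively correlated, from 0.47 for PSPH and MTHFD1L to 0.95 for PSAT1 and PSPH. These are descriptions, since the libraries share their oxygen exposure. In each oxygen comparison the fitted change was negative for all 10 genes, though not all were called. Once each library was set against its group mean, PSAT1 and PSPH still deviated together (0.76), while PSAT1 and SHMT1 deviated in opposite directions (-0.85). The lowest value was -0.91 for PHGDH and CBS, where CBS was close to the limit of detection. In groups of 2 libraries the deviations mirror each other. The library that stood apart had the highest PSAT1 and PSPH levels of hyperoxia, 197 and 37.4 CPM. It also had the lowest SHMT1 level of all, 22.0 CPM. None of these values was recomputed without it. Over all genes tested, the 2 genes whose log2 CPM was most like that of PHGDH were IRF2BP2 (0.97) and MBTPS1 (0.97). For PSAT1 they were THAP10 (0.95) and PSPH (0.95), and for PSPH they were KIF3C (0.95) and PSAT1. SHMT1 was most like CAPG (0.99) and LMTK3 (0.98), SHMT2 like PCBP1 (0.97) and ABCC4 (0.97), and MTHFD2 like OLFML2A (0.97) and KIF23 (0.97). MTHFD1L was most like USF3 (0.96) and NETO2 (0.93), SLC1A4 like EIF4EBP1 (0.96) and CRIP1 (0.95), SLC1A5 like AAAS (0.92) and BLOC1S1-RDH5 (0.91), and CBS like PRXL2A (0.91) and LOC107984313 (0.89). PSAT1 and PSPH were the only members among these neighbours.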

How the data were processed

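RNA from A549 cells was sequenced in 15 libraries. Per the study's methods and the submitters' processing notes, the authors used Trimmomatic 0.38 for trimming, HISAT2 for alignment against hg38, and HTSeq to obtain a count for each gene symbol. The deposited values are whole-number counts for 43388 genes, not normalized. Which annotation release was used, and how strand and overlaps were handled in counting, is not given in the sources used here, so counts of overlapping genes and near-identical copies are uncertain. Rows that name no gene held 75.2% to 78.4% of reads and were left out of library sizes. Total counts on genes were 2642377 to 5605072 per library, and a floor of 3 counts covers counting error only.

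Libraries were grouped by the labels. Counts were filtered with filterByExpr (minimum count 10, minimum total 15), scaled by TMM and tested with the quasi-likelihood F-test of edgeR 4.0.16 (limma 3.58.1, R 4.3.3), with Benjamini-Hochberg adjustment across all genes tested and calls at an adjusted p under 0.05. SE was taken as the absolute log2 fold change over the square root of F. Comparisons of vehicle and ATRA were fitted on 10 libraries in 4 groups, and those with neither on 14 libraries in 6 groups, so their p-values come from different fits. Comparisons that share control libraries are not independent. CPM was scaled by TMM over 14 libraries, and correlations used log2 CPM with a prior count of 2.

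The 10 genes, the gene lists and the tests were chosen with earlier results of these data known. All 10 genes were tested in every comparison, but in several of them values are given for only some of the 10. From each list, up to 3 called genes per direction with the smallest p are named, besides ATF4, TYMS, MTHFD1, NFE2L2, check genes, overlapping genes and copies, and the 2 genes most correlated with each member. The epithelial and fibroblast genes and CD68 were named after their values were seen, as markers that moved with a group. A few genes that this rule names are not reported here. Alternatives were DESeq2 1.42.0, RLE size factors, no filter, other sets of libraries or controls, a block by library number and leaving out each library. The comparison of oxygen effects between vehicle and neither, the fit without the 2 libraries least like the others, ATRA against neither and the lists with neither without the library that stood apart, and the CBS bound without each vehicle library were added after seeing the data. The scripts were tested on simulated data. Figures were drawn with matplotlib 3.10.9 under Python 3.11.15.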

Additional observations from a re-analysis of the deposited data

Results flagged for a closer look

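The ATRA effect on PSAT1 differed between the oxygen exposures by the interaction test. The log2 effect in hyperoxia minus that in normoxia was 1.13 (SE 0.19, adjusted p = 0.0111, edgeR), with all 3 hyperoxia libraries given ATRA above both given vehicle and all 3 normoxia libraries given ATRA below both given vehicle. With the libraries given neither as controls the difference was 0.05 (adjusted p = 0.975).

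CBSL, the near-identical copy of CBS, had 16 counts in replicate 1 of hyperoxia with ATRA, where CBS had 0, and at most 1 count in each of the other grouped libraries. CBSL is not among the 10 genes and entered none of their comparisons.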

How the results depend on the processing

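Of 884 values of the 10 genes recomputed under other settings, 789 kept their direction and their side of the threshold, 52 lost a call, 21 gained one and 22 changed sign, of which 1 had been called. The number of members called lower in hyperoxia with vehicle stayed between 8 and 10. With ATRA it stayed between 4 and 7. None of the 45 correlations moved beyond its interval with a prior count of 0.5. That interval is for the sampling of 14 libraries, and the same libraries were used, so staying within it is a weak check. No paired analysis was possible because the labels carry no replicate numbers. A block by library number alone left 8 members called in hyperoxia with vehicle, 3 with ATRA against vehicle in hyperoxia and 1 in the interaction. Depth limits CBS most.

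Members called in hyperoxia against normoxia with neither were 0 in a fit of only the groups compared (58 genes called in all, against 2324) and 3 to 6 on leaving out 1 library. For ATRA against vehicle in hyperoxia the count was 1 with only the groups compared, 1 with all 14 libraries, 0 with vehicle and neither together as controls, 0 with neither as controls, 1 without the 2 libraries least like the others, and 0 to 3 on leaving out 1 library. In normoxia it was 1 with DESeq2, 1 with no filter and 0 to 1 on leaving out 1 library. For the interaction it was 2 with DESeq2, 2 with no filter, 0 with all 14 libraries, 0 with vehicle and neither together, 0 with neither as controls and 0 to 2 on leaving out 1 library. For vehicle against neither in hyperoxia it was 1 with no filter and 0 to 3 on leaving out 1 library, and for the oxygen effect with vehicle against that with neither 0 to 3. The 3 calls in each came without replicate 2 of hyperoxia with neither, where only the library that stood apart is left in its group and is assumed to vary like the others, and 5630 and 3759 genes were called. The cause of the other changes was not tested.

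Over all genes, hyperoxia against normoxia with vehicle gave 2616 calls, 4665 with only the groups compared, 1420 with all 14 libraries and 1386 to 1523 on leaving out 1 library. With ATRA it gave 3391 calls and 1975 with all 14 libraries. With neither, leaving out 1 library gave 969 to 7364. ATRA against vehicle in hyperoxia gave 331 calls, 522 with no filter, 116 with all 14 libraries, 182 with both controls together, 66 with neither as controls, 218 without the 2 libraries least like the others and 83 to 449 on leaving out 1 library. In normoxia it gave 187 calls, 286 with DESeq2, 300 with no filter, 70 with all 14 libraries, 67 with neither as controls and 56 to 165 on leaving out 1 library. The interaction gave 21 calls, 96 with DESeq2, 91 with no filter, 4 with all 14 libraries, 5 with both controls together, 3 with neither as controls and 4 to 28 on leaving out 1 library. Vehicle against neither in hyperoxia gave 1 call, 10 with DESeq2 and 89 with no filter, and the oxygen effect with vehicle against that with neither 1, 2 and 25. Vehicle against neither in normoxia gave 0 calls with 133 genes at an unadjusted p under 0.05, 1 with DESeq2 and 3 with no filter.

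Signs that changed were these, as log2 fold changes. For ATRA in hyperoxia with neither as controls, PSAT1 was at -0.38, PSPH at -0.19 and SHMT2 at -0.052. For ATRA in normoxia, the block gave MTHFD1L -0.026 and CBS 0.095, both controls together gave SHMT2 0.048 and SLC1A4 0.18, and neither as controls gave SHMT1 0.022, SHMT2 0.17, MTHFD1L -0.11 and SLC1A4 0.37. Leaving out 1 library there gave ranges of -0.025 to 0.24 for MTHFD1L, -0.16 to 0.12 for SLC1A4 and -1.01 to 1.06 for CBS. For the interaction, SHMT2 was at -0.045 with both controls together and -0.22 with neither, and MTHFD1L ranged from -0.091 to 0.43 on leaving out 1 library and was at -0.091 without the 2 libraries least like the others. For vehicle against neither in normoxia, PSAT1 ranged from -0.069 to 0.24. For ATRA against neither in hyperoxia, without the library that stood apart PSAT1 was at 0.43, PSPH at 0.20 and SHMT1 at -0.15, and for hyperoxia against normoxia with neither TYMS was at -0.067.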

Other observations

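The library whose labels contradict each other was assigned to no group. Its normalized counts were 14.6 CPM for PHGDH, 68.8 for PSAT1, 16.8 for PSPH, 30.1 for SHMT1, 65.1 for SHMT2, 87.4 for MTHFD2, 27.7 for MTHFD1L, 14.9 for SLC1A4, 274 for SLC1A5 and 1.31 for CBS, and CBSL had 0 counts.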
